A study of Homo sapiens with 9 samples.

Results

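The histone genes were taken as the protein-coding genes of the deposited table whose symbol starts with HIST1H, HIST2H, HIST3H or HIST4H, called replication-dependent here, or with H1F, H2AF or H3F, called variant. By this rule 87 of 58735 listed genes (19951 of them protein-coding) were members, 71 of them replication-dependent and 16 variant. Their RNA was read in SKOV3, a human ovarian cancer cell line, in 9 libraries of 3 groups with 3 libraries each: cells expressing WT CDK9, cells expressing WT CDK9 that received an ALK inhibitor for 24 h, and cells expressing Tyr19Phe CDK9, in which the tyrosine that the kinase ALK phosphorylates is replaced by phenylalanine. Whether the sequenced cells also carried a CDK9 knockdown, and whether each kind of cell is 1 clone, are not given in the sources used here, and the cells made to express a form of CDK9 and the form itself cannot be told apart. The inhibitor's name and dose in this experiment, and whether the 3 libraries of a group came from separate cultures, are not given in the sources used here, so p-values measure the spread between these libraries. The design asks how RNA levels differ from those of untreated WT CDK9 cells with the ALK inhibitor and with Tyr19Phe CDK9.

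Histones wrap DNA into nucleosomes: H2A, H2B, H3 and H4 form the core, and H1 binds the DNA that links them. Replication-dependent histone genes lie in clusters, mostly lack introns and are transcribed in S phase, and their mRNA ends just after a conserved stem-loop instead of in a poly(A) tail. That end is cut by a complex guided by the U7 small nuclear RNA, with the stem-loop-binding protein SLBP. CDK9, the kinase of the elongation factor P-TEFb, acts on RNA polymerase II and is known to take part in this 3′ end processing; where the processing fails, transcripts can run on to a polyadenylation signal farther downstream. Variant histones, such as H2A.Z (H2AFZ, H2AFV), H2A.X (H2AFX) and H3.3 (H3F3A, H3F3B), are made throughout the cell cycle, mostly from ordinary polyadenylated mRNA. Whether the libraries were made from polyadenylated or total RNA is not given in the sources used here, so RNA that ends at the stem-loop and polyadenylated RNA of the same gene cannot be told apart in these counts.

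The stem-loop is the feature that sets the classes apart in sequence, and it was read from hg38 after the stop codon of each gene (GENCODE release 44). It was searched on the gene's own strand within 150 bases as 16 bases that begin with GG and end with CC, in which 6 bases pair with 6 bases (A-T, G-C or G-T) around a loop of 4 bases that begins with T and has T again before its last base. All 66 replication-dependent genes with a matched stop codon held it, 23 to 63 bases after the stop codon (median 36), against 1 of 16 variant genes (6.25%) and 21 of 19543 other protein-coding genes (0.107%). The remaining 5 replication-dependent genes were not searched. The windows below show, on the coding strand and with the stem-loop in capitals, the H2B, H4, H2A and H1 genes with the smallest adjusted p of their type in the Tyr19Phe comparison, the H2B gene that shares a start region with HIST1H2AG, and H2AFX, the variant gene that carries a stem-loop.
HIST1H2BK: ccaaaGGCTCTTTTAAGAGCCacttaaatt
HIST1H2BJ: ctaacGGCTCTTTTAAGAGCCacccatgtt
HIST1H2AG: ccaacGGCTCTTTTCAGGGCCacccacgtc
HIST1H4I: aaaaaGGCCCTTTTTAGGGCCcctaagctt
HIST1H1C: caaaaGGCTCTTTTCAGAGCCaccactgat
H2AFX: acaaaGGCCCTTTTAAGGGCCaccaccgcc
In hg38 these windows lie at chr6:27146357-27146386 (minus strand), chr6:27132312-27132341 (minus strand), chr6:27133510-27133539 (plus strand), chr6:27139649-27139678 (plus strand), chr6:26055735-26055764 (minus strand) and chr11:119094889-119094918 (minus strand), all in the stretch after the stop codon. The 16 letters of HIST1H2BK and HIST1H2BJ are the same and recur in 10 of the 66 genes, those of HIST1H1C recur in 36, and those of HIST1H2AG stand in that gene alone.

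Libraries held between 18169050 and 29320184 counts, with Tyr19Phe CDK9 libraries the deepest (1.45 times WT CDK9 on average), and 16350 genes passed edgeR's expression filter and were tested. Levels are given in CPM, counts scaled to 1000000 per library after TMM correction, and a count of 3 corresponded to 0.102 to 0.165 CPM; such floors cover counting error only. A gene was called at an adjusted p (edgeR's quasi-likelihood test in a joint fit of the 9 libraries, Benjamini-Hochberg over all tested genes) under 0.05, and all adjusted p-values in the text are from this test unless DESeq2 is named. CDK9 itself had 48.4, 49.7 and 47.6 CPM in WT CDK9 libraries, 43.8, 47.3 and 45.7 CPM with the inhibitor and 52.4, 53.1 and 59.5 CPM with Tyr19Phe CDK9, and was called in neither comparison with WT CDK9 (adjusted p = 0.665 and 0.106). CDK9 was called higher in Tyr19Phe than in inhibitor-treated cells, with a log2 fold change of 0.27 (SE 0.08, adjusted p = 0.00961) and no overlap of the groups. Of 7 epithelial and ovarian cancer markers, all were tested, with mean levels of 1965 CPM for ERBB2, 1436 CPM for KRT8 and 266 CPM for PAX8 but 0.398 CPM for CDH1. In Tyr19Phe against WT CDK9 cells 3 of the 7 were called lower and 2 higher, with log2 fold changes of -1.24 for KRT19, 0.38 for KRT8 and -0.29 for ERBB2, and with the inhibitor 2 were called higher (ERBB2 and KRT19). Over all tested genes 10.4% were called lower and 7.61% higher with Tyr19Phe CDK9, and 2.73% lower and 1.82% higher with the inhibitor. Of 12 immune, endothelial and fibroblast markers, 11 did not pass the filter and LYZ was at 0 counts in every library. The remaining marker, the collagen gene COL1A1, carried most of the list's summed level, which was 104 to 108 CPM in WT CDK9, 116 to 150 CPM with the inhibitor and 32.9 to 46.3 CPM in Tyr19Phe CDK9 libraries. The part of these differences in the histone results was not tested. ALK inhibitor replicate 2 and Tyr19Phe CDK9 replicate 3 had the fewest genes detected in their groups (19944 and 20635), and the results are also given without both.

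Replication-dependent histone RNA was scarce in all 9 libraries and made up 1.31% to 3.48% of all histone CPM. Of the 71 genes, 13 had no count in any library, 14 had 1 to 9 counts over the 9 libraries together, 23 more had at least 10 but did not pass the filter, and 21 were tested. Among those without counts were the testis genes HIST1H1T, HIST1H2AA and HIST1H2BA, and HIST1H4C, an H4 gene, had 12 counts in all. The highest total of an untested gene was 81, for the linker histone gene HIST1H1B. Per length (mean CPM per kb of listed length over the 9 libraries), tested replication-dependent genes lay between 0.159 and 17.5. HIST1H2BK (H2B) was the highest, followed by HIST1H1C (H1) at 8.01, HIST3H2A (H2A) at 2.83 and HIST1H4I (H4) at 2.58 CPM per kb. The 10 tested variant genes lay between 2.65 and 203 CPM per kb. The listed length weighs on such levels: for 30 of the 66 replication-dependent genes matched, among them HIST1H2BK (381 bases) and HIST1H1C (642 bases), the table lists the coding sequence alone, so reads beyond the stop codon would not be counted for them. Genes of the same histone type resemble each other to differing degrees, and reads that fit several of them may have been lost or split in the authors' counting.

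Summed over all 71 genes, whether tested or not, the replication-dependent histone RNA counted was highest in the Tyr19Phe CDK9 libraries. What part of it ended at the stem-loop is not known from these counts. The summed level was 28.3, 26.7 and 29.0 CPM in the WT CDK9 libraries, 31.7, 36.3 and 36.2 CPM with the ALK inhibitor and 64.8, 60.6 and 56.7 CPM with Tyr19Phe CDK9. The 3 groups did not overlap, and the means stood at 1.24 times WT CDK9 with the inhibitor and 2.17 times with Tyr19Phe CDK9; no p is given for such a sum. The 9 genes called higher with Tyr19Phe CDK9 rose from 14.6 ± 1.04 to 42.3 ± 2.01 CPM together (SD, n = 3), a description of genes chosen by that contrast. The other 62 genes had 13.4 ± 0.562 CPM in WT CDK9 and 18.4 ± 2.44 CPM in Tyr19Phe CDK9 cells (SD, n = 3), 1.38 times as much. Within them, the 50 untested genes had 3.62 ± 0.911 and 3.89 ± 0.865 CPM (SD, n = 3), which differed by less than the spread between libraries. Both remainders are selected too. The 62 lack the genes called by this contrast, and the 50 also lack those that passed the filter through high Tyr19Phe CDK9 levels. Their sums therefore lean toward no rise and are descriptions only. By histone type, the Tyr19Phe to WT CDK9 ratio of summed CPM was 2.49 for H2B, 2.20 for H2A, 2.18 for H4, 1.96 for H3 and 1.61 for H1.

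**Figure D1:**
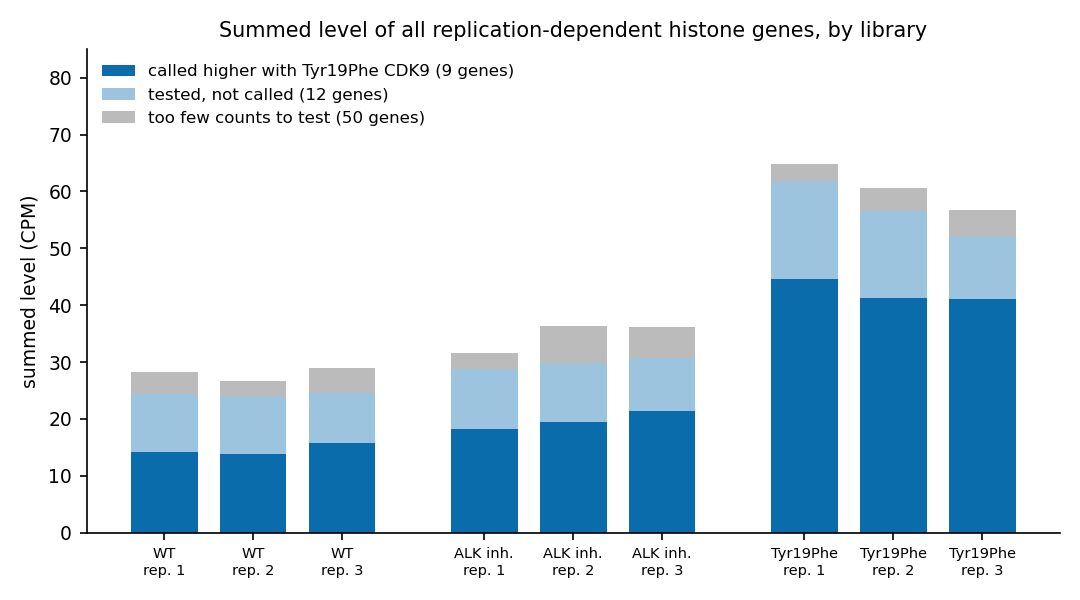
Summed level (CPM, vertical axis from 0) of the 71 replication-dependent histone genes in each of the 9 libraries, with bars divided into the 9 genes called higher in Tyr19Phe CDK9 cells, the 12 tested genes not called and the 50 genes with too few counts to test. The Tyr19Phe CDK9 bars reach 56.7 to 64.8 CPM, the WT CDK9 bars 26.7 to 29.0 CPM.

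In Tyr19Phe against WT CDK9 cells, 9 of the 21 tested replication-dependent genes were called higher and none lower. Over all 16350 tested genes 7.61% were called higher and 10.4% lower, and among the 5182 tested genes with a mean of 0.3 to 5 CPM, the range of most of these genes, 95 were called higher and 123 lower. DESeq2 called 8 of the 9 higher, giving no adjusted p for HIST1H2AI, and none lower. It also gave no adjusted p for some uncalled genes, such as HIST1H1E and HIST1H2AL. At an unadjusted p under 0.05 edgeR had 10 higher and none lower, beside 2186 higher and 2553 lower of all 16350 tested genes. The called genes were HIST1H2BK, HIST1H2BD and HIST1H2BJ (H2B), HIST1H2AG, HIST1H2AC and HIST1H2AI (H2A), HIST1H4I (H4), HIST1H3H (H3) and HIST1H1C (H1), with fitted folds of 1.65 to 6.77. The median log2 fold change of the 21 was 0.89, against 0.003 over all tested genes and 0.05 over those of 0.3 to 5 CPM. Since 6 of the 21 passed the filter only with the Tyr19Phe CDK9 libraries, that median and count are no support on their own; of the 15 that pass without these libraries 7 were called higher. Leaving out each library in turn gave 6 to 9 calls, with 6 without WT CDK9 replicate 2 and 6 without Tyr19Phe CDK9 replicate 2. Without ALK inhibitor replicate 2 and Tyr19Phe CDK9 replicate 3 together there were 9, HIST1H2AI not among them.

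**Figure D2:**
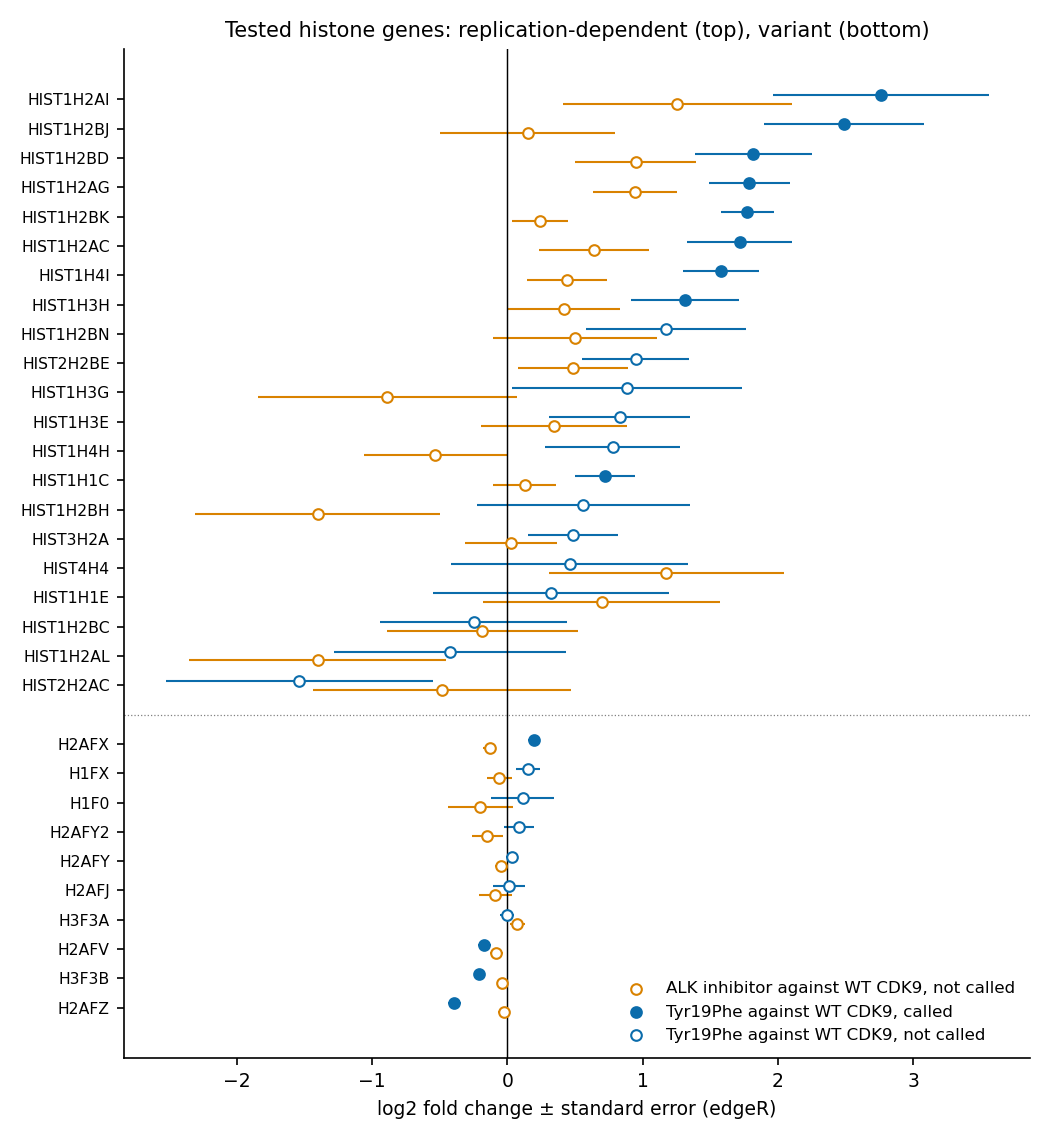
Log2 fold change ± standard error of the 31 tested histone genes in the 2 comparisons with WT CDK9, with filled circles for genes called by edgeR and open circles for the others. Of the replication-dependent genes in the upper part, 9 are filled in the Tyr19Phe comparison and lie at 0.72 to 2.76; variant genes in the lower part stay within -0.39 to 0.20.

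The H2B gene HIST1H2BK (ENSG00000197903, chr6:27146418-27146798, minus strand) had the largest counts of the class. HIST1H2BK had 3.44, 3.54 and 3.74 CPM in the WT CDK9 libraries, 3.56, 5.16 and 3.98 CPM with the ALK inhibitor and 13.0, 13.4 and 10.2 CPM with Tyr19Phe CDK9. The Tyr19Phe CDK9 libraries lay above all 6 others, and the log2 fold change against WT CDK9 was 1.77 (SE 0.20, adjusted p = 3.32e-08). HIST1H2BD (ENSG00000158373, chr6:26158146-26171349, plus strand), another H2B gene, gave the same order of groups at lower levels. HIST1H2BD had 0.718, 1.11 and 0.534 CPM in the WT CDK9 libraries, 1.71, 0.989 and 1.86 CPM with the ALK inhibitor and 3.56, 2.28 and 2.53 CPM with Tyr19Phe CDK9. Its log2 fold change was 1.82 (SE 0.43, adjusted p = 0.00271). Its span overlaps a pseudogene on the same strand and an antisense gene on the other, so its counts are uncertain. HIST1H2BJ (ENSG00000124635, chr6:27125897-27132750, minus strand), also H2B, had few counts outside the Tyr19Phe CDK9 group and passed the filter only through it. HIST1H2BJ had 0.257, 0.739 and 0.160 CPM in the WT CDK9 libraries, 0.380, 0.494 and 0.413 CPM with the ALK inhibitor and 2.17, 2.03 and 2.38 CPM with Tyr19Phe CDK9. The libraries with Tyr19Phe CDK9 were again all higher, with a log2 fold change of 2.49 (SE 0.59, adjusted p = 0.00251). The other 4 tested H2B genes, HIST1H2BC, HIST1H2BH, HIST1H2BN and HIST2H2BE, were not called, with log2 fold changes of -0.25, 0.56, 1.17 and 0.95. These and the uncalled genes named for the other types, apart from HIST3H2A, lie outside the rule for named genes and were chosen after their values were seen.

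Among H2A genes, HIST1H2AG (ENSG00000196787, chr6:27133042-27135291, plus strand) changed most clearly. HIST1H2AG had 1.90, 1.37 and 1.23 CPM in the WT CDK9 libraries, 3.42, 2.25 and 3.00 CPM with the ALK inhibitor and 5.01, 4.24 and 6.38 CPM with Tyr19Phe CDK9. Its 3 groups did not overlap, and the log2 fold change of Tyr19Phe against WT CDK9 was 1.79 (SE 0.30, adjusted p = 3.92e-05). HIST1H2AC (ENSG00000180573, chr6:26124145-26139116, plus strand) had 1.18, 0.581 and 1.55 CPM in WT CDK9, 1.52, 1.43 and 2.22 CPM in inhibitor-treated and 3.32, 2.88 and 4.72 CPM in Tyr19Phe CDK9 libraries. All Tyr19Phe CDK9 libraries lay above the rest, and the log2 fold change was 1.72 (SE 0.39, adjusted p = 0.00159). HIST1H2AI (ENSG00000196747, chr6:27808199-27808701, plus strand) is outside the rule for named genes, is given because it completes the 9, and passed the filter only through the Tyr19Phe CDK9 libraries. HIST1H2AI had 0.308, 0.105 and 0.107 CPM in the WT CDK9 libraries, 0.570, 0.494 and 0.207 CPM with the ALK inhibitor and 0.372, 1.32 and 1.96 CPM with Tyr19Phe CDK9. These are 6, 2 and 2 counts against 11, 37 and 52, the groups stand close at their nearest, and the log2 fold change of 2.76 (SE 0.80, adjusted p = 0.013) was lost without WT CDK9 replicate 2 or 3 or Tyr19Phe CDK9 replicate 2 or 3 (adjusted p = 0.0571 to 0.117). HIST1H2AL, HIST2H2AC and HIST3H2A were tested and not called, with log2 fold changes of -0.43, -1.54 and 0.48. HIST1H2AL lies within the listed span of HIST1H2BN on the same strand.

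The H4 gene HIST1H4I (ENSG00000276180, chr6:27138588-27139881, plus strand) rose as well. HIST1H4I had 1.85, 1.53 and 2.25 CPM in the WT CDK9 libraries, 2.42, 2.58 and 2.63 CPM with the ALK inhibitor and 7.11, 5.20 and 4.49 CPM with Tyr19Phe CDK9. Every Tyr19Phe CDK9 library was at least at 4.49 CPM and no other library above 2.63 CPM, with a log2 fold change of 1.58 (SE 0.28, adjusted p = 9.37e-05). The H3 gene HIST1H3H (ENSG00000278828, chr6:27810064-27811300, plus strand) had 1.13, 0.844 and 1.28 CPM with WT CDK9, 1.23, 1.26 and 1.86 CPM with the inhibitor and 2.67, 2.92 and 2.53 CPM with Tyr19Phe CDK9. Its groups WT CDK9 and Tyr19Phe CDK9 did not overlap, and the log2 fold change was 1.31 (SE 0.40, adjusted p = 0.0184); without WT CDK9 replicate 2 or Tyr19Phe CDK9 replicate 2 the adjusted p was 0.0695 and 0.0674. HIST1H1C (ENSG00000187837, chr6:26055787-26056428, minus strand), which encodes the linker histone H1.2, showed the smallest change of the 9. HIST1H1C had 3.49, 3.96 and 4.92 CPM in the WT CDK9 libraries, 3.42, 4.83 and 5.27 CPM with the ALK inhibitor and 7.48, 6.94 and 5.96 CPM with Tyr19Phe CDK9. The Tyr19Phe CDK9 libraries lay above the others by a narrow margin, the log2 fold change was 0.72 (SE 0.22, adjusted p = 0.0209), and the call was lost without WT CDK9 replicate 1 or 2 or Tyr19Phe CDK9 replicate 1 or 2 (adjusted p = 0.0553 to 0.104). The remaining tested H1, H3 and H4 genes, HIST1H1E, HIST1H3E, HIST1H3G, HIST1H4H and HIST4H4, were not called; their log2 fold changes were 0.32, 0.83, 0.89, 0.78 and 0.46 with standard errors up to 0.88. Over the 12 uncalled genes of all types, standard errors ran from 0.33 to 0.99.

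**Figure D3:**
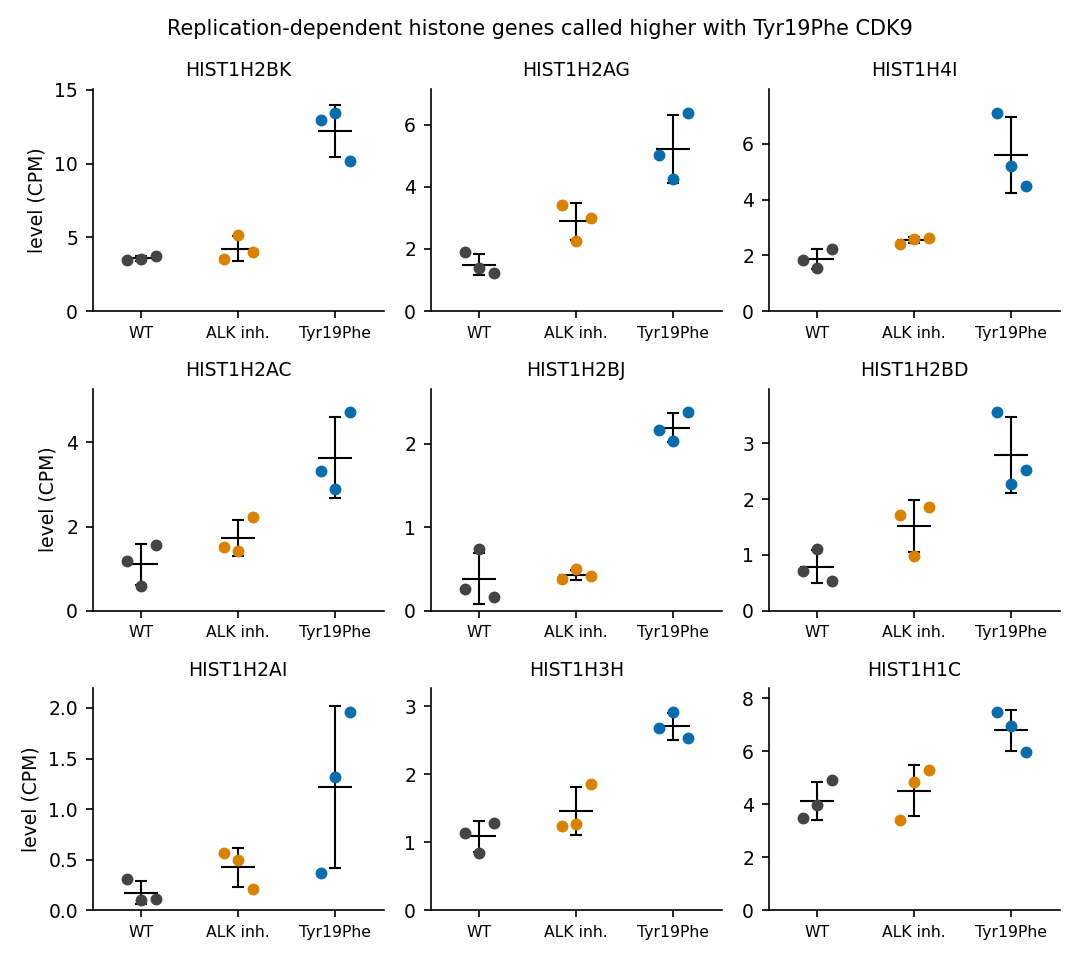
Level (CPM, vertical axes from 0, scaled per gene) of the 9 replication-dependent genes called higher in Tyr19Phe CDK9 cells, with 1 point per library and bars for the mean ± SD of 3 libraries. In every panel the 3 Tyr19Phe CDK9 points lie above the 3 WT CDK9 points, and the nearest approach is in HIST1H2AI (0.308 against 0.372 CPM). The genes shown were chosen by this comparison, so their separation is no support on its own.

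With the ALK inhibitor, edgeR called none of the 21 tested replication-dependent genes against WT CDK9, where 1.82% of all tested genes were called higher and 2.73% lower. DESeq2 also called none. It gave no adjusted p for most of them here, HIST1H2AC and HIST1H2BD among them, and could not call those. At an unadjusted p under 0.05 edgeR had 2 higher (HIST1H2AG and HIST1H2BD) and none lower. At that threshold 1129 of all 16350 tested genes were higher and 1344 lower. HIST1H2AG came nearest to a call, with a log2 fold change of 0.94 (SE 0.31, adjusted p = 0.0809) and inhibitor-treated libraries all above the WT CDK9 libraries. The H2B gene HIST1H2BD had 0.95 (SE 0.45, adjusted p = 0.306), with overlapping groups. HIST1H2BK, measured with the smallest error, had 0.24 (SE 0.21, adjusted p = 0.678), and its groups overlapped. Of the 21 log2 fold changes 15 were above 0 and 6 below, with a median of 0.34 against -0.001 over all tested genes. That median rested in part on 1 library: it was 0.09 without ALK inhibitor replicate 2 and 0.22 without WT CDK9 replicate 1.

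The 2 comparisons share the WT CDK9 libraries, so the groups were also set against each other directly. In Tyr19Phe against inhibitor-treated WT CDK9 cells, 5 of the 21 tested genes were called higher and none lower (edgeR, with none lower by DESeq2 or at an unadjusted p under 0.05), beside 9.57% of all tested genes called higher and 11.1% lower. By DESeq2 some of the 21, such as HIST1H2AL and HIST1H2BH, had no adjusted p. The edgeR count too includes genes that passed the filter only with the Tyr19Phe CDK9 libraries and is no support on its own. Of the 15 that pass without them 4 were called higher. The 5 called genes were HIST1H2BK at 1.53 (SE 0.19, adjusted p = 2.95e-07), HIST1H4I at 1.14 (SE 0.27, adjusted p = 0.0026), HIST1H2BJ at 2.34 (SE 0.58, adjusted p = 0.0035), HIST1H2AG at 0.84 (SE 0.28, adjusted p = 0.0307) and HIST1H2AC at 1.07 (SE 0.37, adjusted p = 0.0378) on the log2 scale. The calls of HIST1H2AG and HIST1H2AC were weak. HIST1H2AG lost its call without ALK inhibitor replicate 2 or 3 or Tyr19Phe CDK9 replicate 1 or 3 (adjusted p = 0.0624 to 0.168). HIST1H2AC lost it without ALK inhibitor replicate 1 or 2 or Tyr19Phe CDK9 replicate 1 or 3 (adjusted p = 0.0609 to 0.194). Without ALK inhibitor replicate 2 and Tyr19Phe CDK9 replicate 3 together 3 genes were called higher in place of 5. HIST1H1C (log2 0.60 (SE 0.22, adjusted p = 0.0542)) stood at the threshold.

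All 9 called genes lie on chromosome 6, in the HIST1 cluster, which is the largest of the human histone clusters. From chr6:26055787 to 26285638, 3 of 9 tested HIST1 genes were called higher with Tyr19Phe CDK9 (HIST1H1C, HIST1H2AC and HIST1H2BD). From chr6:27125897 to 27865798, 6 of 8 were (HIST1H2BJ, HIST1H2AG, HIST1H4I, HIST1H2BK, HIST1H2AI and HIST1H3H), and of the 4 tested genes on chromosomes 1 and 12 none was, with 1 (HIST2H2BE) at an unadjusted p under 0.05 and none by DESeq2. Among genes that pass the filter without the Tyr19Phe CDK9 libraries, 3 of 7 in the first stretch, 4 of 5 in the second and 0 of 3 elsewhere were called, and no test of a difference between the stretches was made. Other genes of the neighbourhood are given for comparison. Of 42 other tested genes from 1 Mb before to 1 Mb after the tested HIST1 genes, 4 were called higher and 1 lower. Over all tested genes 7.61% were called higher and 10.4% lower. The 4 called higher lay 309, 346, 385 and 2211 kb from the first tested HIST1 gene. Their log2 fold changes were 0.558, 0.692, 0.586 and 0.355. The median of the 42 was 0.13, and within 5 Mb of each tested HIST1 gene the median of the other genes was 0.12 to 0.13. The part of the region in the histone calls was not tested. The 6 other tested genes inside the second stretch were not called by edgeR and had a median of 0.10.

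**Figure D4:**
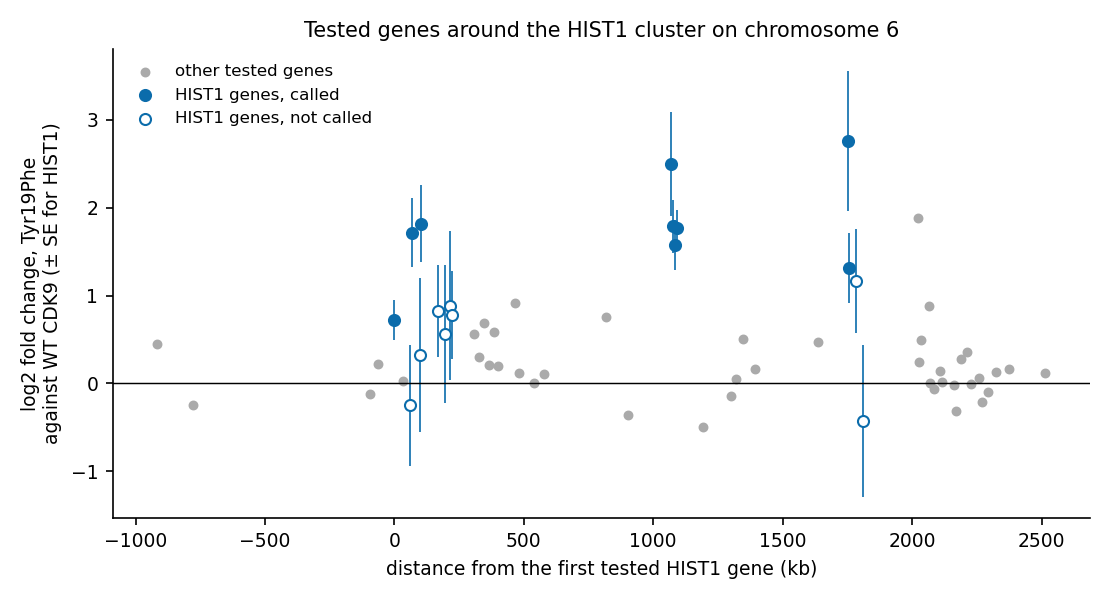
Log2 fold change of Tyr19Phe against WT CDK9 cells for tested genes around the HIST1 cluster, by distance in kb from the first tested HIST1 gene, with ± standard error for HIST1 genes and grey points for the 42 other genes. Called HIST1 genes lie between 0.72 and 2.76, and the other genes have a median of 0.13 and run from -0.50 to 1.88.

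Many histone genes stand back to back, with the start sites of the pair close together. By the GENCODE start sites, 13 such pairs were found within 1000 bases, 12 of them an H2A with an H2B gene, 193 to 250 bases apart. Both genes were tested in 3 pairs, 1 in 5 pairs and none in 5. HIST1H2BJ and HIST1H2AG, 247 bases apart, were both called higher with Tyr19Phe CDK9. Since HIST1H2BJ passed the filter only through the Tyr19Phe CDK9 libraries, its call beside HIST1H2AG is no support on its own. HIST1H2AC was called higher whereas its partner HIST1H2BC, 245 bases away, was not, with a log2 fold change of -0.25 (SE 0.69, adjusted p = 0.867) and levels of 0.872, 0.633 and 0.641 CPM in WT CDK9 and 0.711, 0.676 and 0.415 CPM in Tyr19Phe CDK9 libraries. HIST2H2BE and HIST2H2AC on chromosome 1 were not called, at 0.95 (SE 0.40, adjusted p = 0.0987) and -1.54 (SE 0.99, adjusted p = 0.326). HIST1H2AH, the partner of HIST1H2BK, had 15 counts over all 9 libraries against 1481 for HIST1H2BK, and HIST1H2BL, the partner of HIST1H2AI, had 20.

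The letters of the stem-loop and the sequence after it are set beside the calls as a description without a test, and the tested genes counted include the 6 that passed the filter only with the Tyr19Phe CDK9 libraries. The most frequent form, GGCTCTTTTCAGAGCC, stood in 36 of the 66 genes, 10 of them tested and 4 called higher with Tyr19Phe CDK9. The form of HIST1H2BK, HIST1H2BJ and HIST1H2BD, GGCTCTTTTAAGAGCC, stood in 10 genes, 5 of them tested and 3 called. H4 genes carried forms of their own, of which 3 genes were tested and HIST1H4I was called. The polyadenylation signal AATAAA, searched on the gene's strand within 1000 bases after the stop codon, was found for 29 of 66 replication-dependent genes (43.9%), 11 of 16 variant genes (68.8%) and 12159 of 19543 other protein-coding genes (62.2%). Of the 9 called genes 6 had it, of the 12 tested and uncalled genes 2, and of the 45 untested genes 21. In the called genes it lay at 56 (HIST1H1C), 65 (HIST1H2BD), 365 (HIST1H3H), 787 (HIST1H2AG), 805 (HIST1H2AC) and 995 bases (HIST1H4I). HIST1H2BK, HIST1H2BJ and HIST1H2AI were called and did not hold these letters in that window. The listed spans of several genes run beyond the window, among them HIST1H2BJ and HIST1H2AC, which were called, and HIST1H4H, which was not. Signals farther away and other forms of the signal were not searched. By listed length, 4 of 11 tested genes over 1000 bases and 5 of 10 tested genes of 1000 bases or less were called higher.

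Of the 16 variant genes 10 were tested; 3 had no count, 2 had totals under 10 and H3F3C had 38 counts in all. In Tyr19Phe against WT CDK9 cells 3 were called lower and 1 higher, by edgeR and by DESeq2, where 10.4% of all tested genes were called lower and 7.61% higher. With the inhibitor none was called by either tool, where the shares over all tested genes were 2.73% and 1.82%. At an unadjusted p under 0.05 edgeR had 1 variant gene lower (H2AFX), beside 1344 of all 16350 tested genes. Of the 10 tested genes 6 overlap a listed gene on the other strand, among them H2AFZ, H3F3A and H3F3B, so their counts may hold reads of both. The changes were small beside those of the replication-dependent genes. H2AFZ (ENSG00000164032, chr4:99948086-99950388, minus strand), which encodes the H2A.Z.1 form of a variant found at promoters, fell most. H2AFZ had 338, 372 and 327 CPM in the WT CDK9 libraries, 351, 328 and 339 CPM with the ALK inhibitor and 259, 272 and 259.7 CPM with Tyr19Phe CDK9. The Tyr19Phe CDK9 libraries lay below all 6 others, with log2 fold changes of -0.39 (SE 0.04, adjusted p = 6.8e-08) against WT CDK9 and -0.36 (SE 0.04, adjusted p = 2.15e-07) against inhibitor-treated cells. H3F3B (ENSG00000132475, chr17:75776434-75785893, minus strand), an H3.3 gene, had the largest counts of all histone genes. H3F3B had 606, 628 and 620.2 CPM in the WT CDK9 libraries, 604, 590.1 and 613 CPM with the ALK inhibitor and 529.8, 535 and 542 CPM with Tyr19Phe CDK9. It was lower in every Tyr19Phe CDK9 library, with log2 fold changes of -0.21 (SE 0.04, adjusted p = 4.9e-05) against WT CDK9 and -0.17 (SE 0.04, adjusted p = 0.000548) against inhibitor-treated cells (its span overlaps UNK on the other strand). H3F3A, which encodes the same protein, did not follow. H3F3A had 156, 152 and 138 CPM in the WT CDK9 libraries, 160.5, 159 and 149 CPM with the ALK inhibitor and 152, 148 and 145 CPM with Tyr19Phe CDK9. Its groups overlapped and its log2 fold change was -0.00 (SE 0.05, adjusted p = 0.985).

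H2AFV (ENSG00000105968, chr7:44826791-44848083, minus strand), the other H2A.Z gene, had 224, 222 and 212 CPM with WT CDK9, 204, 218 and 199.8 CPM with the inhibitor and 199, 203 and 183 CPM with Tyr19Phe CDK9. Its log2 fold change with Tyr19Phe CDK9 was -0.17 (SE 0.05, adjusted p = 0.0102), but the adjusted p was 0.0737 without WT CDK9 replicate 1 and 0.12 without Tyr19Phe CDK9 replicate 3, and 0.104 without that library and ALK inhibitor replicate 2. H2AFX (ENSG00000188486, chr11:119093854-119095467, minus strand) encodes H2A.X, which is phosphorylated beside DNA breaks, and is the variant gene with a stem-loop. H2AFX had 333, 341 and 292 CPM in the WT CDK9 libraries, 283, 304 and 294 CPM with the ALK inhibitor and 360.3, 371 and 376 CPM with Tyr19Phe CDK9. Tyr19Phe CDK9 libraries lay above all others, with log2 fold changes of 0.20 (SE 0.05, adjusted p = 0.00255) against WT CDK9 and 0.33 (SE 0.05, adjusted p = 2.73e-06) against inhibitor-treated cells. Against WT CDK9 the inhibitor gave -0.13 (SE 0.05, adjusted p = 0.129), which became a call (adjusted p = 0.0093) without WT CDK9 replicate 3, the lowest of its group. The inhibitor-treated and WT CDK9 libraries of H2AFX overlapped.

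The other 5 tested variant genes were not called in any comparison. H1FX, the linker histone H1.10 gene, had 47.3 ± 6.32 CPM in WT CDK9 and 52.6 ± 4.40 CPM in Tyr19Phe CDK9 cells (SD, n = 3), and H1F0, the gene of H1.0, a linker histone of resting and differentiated cells, 6.32 ± 2.07 and 6.83 ± 0.757 CPM (SD, n = 3). The macroH2A genes H2AFY and H2AFY2 had 197 ± 4.25 and 25.1 ± 1.25 CPM in WT CDK9 and 202 ± 2.40 and 26.6 ± 3.53 CPM in Tyr19Phe CDK9 cells (SD, n = 3). H2AFJ, an H2A variant, had 17.7 ± 1.22 and 17.8 ± 1.55 CPM (SD, n = 3). Their log2 fold changes lay between 0.01 and 0.15, with standard errors up to 0.23. Summed over the 16 genes, variant RNA was 1953, 2018 and 1872 CPM in WT CDK9, 1890, 1884 and 1870 CPM in inhibitor-treated and 1796, 1839 and 1817 CPM in Tyr19Phe CDK9 libraries. The Tyr19Phe CDK9 sums lay below the WT CDK9 sums, at 0.933 times their mean.

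**Figure D5:**
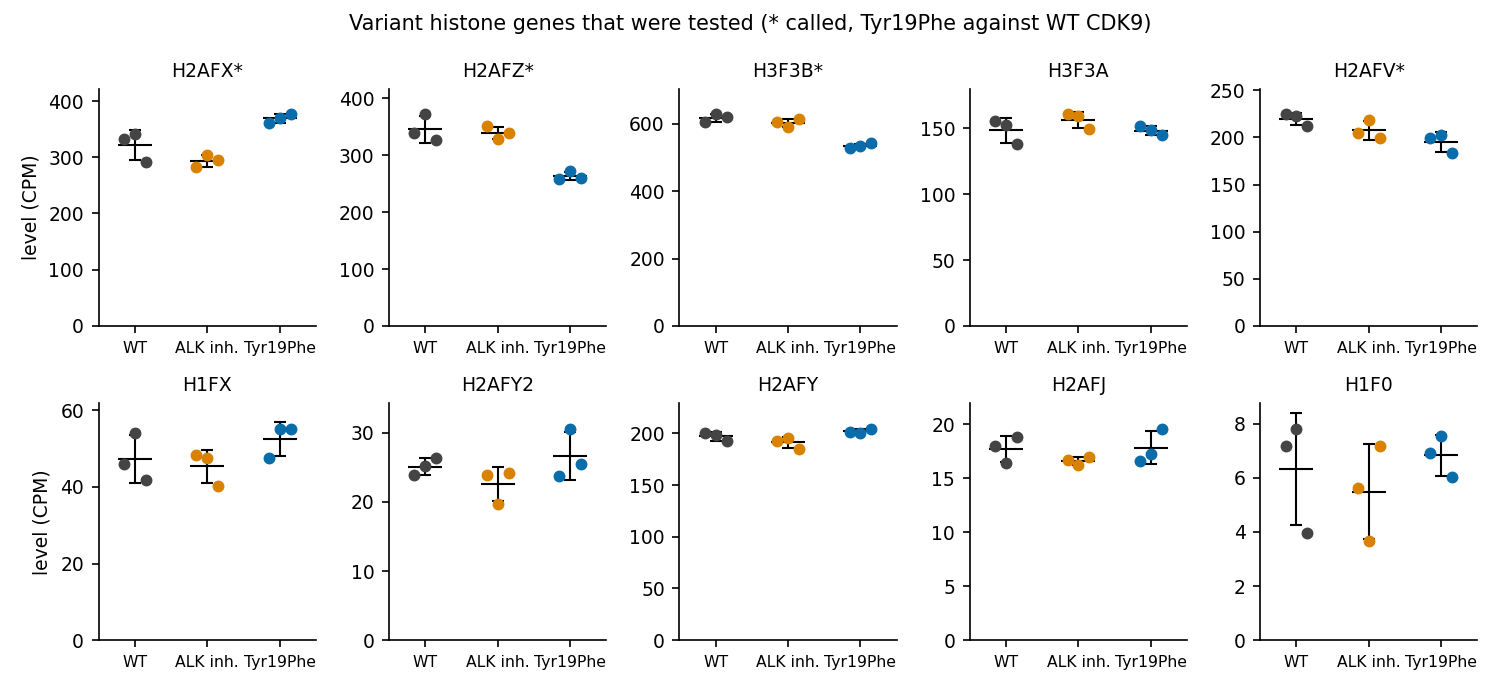
Level (CPM, vertical axes from 0, scaled per gene) of the 10 tested variant histone genes, with 1 point per library, bars for the mean ± SD of 3 libraries and an asterisk for genes called in Tyr19Phe against WT CDK9 cells. Tyr19Phe CDK9 points lie below WT CDK9 points in H2AFZ, H3F3B and H2AFV and above them in H2AFX.

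The counts of called genes in the lists below stand beside 10.4% of all tested genes called lower and 7.61% called higher with Tyr19Phe CDK9, and 2.73% and 1.82% with the inhibitor. Of 27 genes of histone mRNA 3′ end processing and the histone locus body, all tested, 4 were called lower and 4 higher with Tyr19Phe CDK9 and 1 lower and none higher with the inhibitor, with medians of 0.01 and -0.01. At an unadjusted p under 0.05 the inhibitor gave none higher, and DESeq2 called none higher. SLBP, which binds the stem-loop, fell with Tyr19Phe CDK9. Its levels were 146, 152 and 148 CPM in WT CDK9 and 129, 124 and 132 CPM in Tyr19Phe CDK9 libraries, with a log2 fold change of -0.21 (SE 0.05, adjusted p = 0.00317); with the inhibitor it was -0.08 (SE 0.05, adjusted p = 0.51). NPAT, the activator of histone gene transcription in the histone locus body, was not called, with -0.06 (SE 0.09, adjusted p = 0.724) for Tyr19Phe CDK9 and -0.08 (SE 0.10, adjusted p = 0.789) for the inhibitor. CASP8AP2 (FLASH), which joins the U7 complex to its nuclease, was not called either, with -0.00 (SE 0.07, adjusted p = 0.979) and 0.05 (SE 0.07, adjusted p = 0.829). The called genes with the smallest adjusted p were the small nuclear ribonucleoprotein genes SNRPB, at 0.40 (SE 0.06, adjusted p = 1.07e-05) with Tyr19Phe CDK9, and SNRPE, at -0.27 (SE 0.07, adjusted p = 0.0334) with the inhibitor, and the cleavage factor gene CPSF2, at -0.19 (SE 0.06, adjusted p = 0.0116) with Tyr19Phe CDK9.

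Of 11 genes that add ubiquitin to H2B or remove it, 2 were called lower and 1 higher with Tyr19Phe CDK9, and none was called with the inhibitor by edgeR or DESeq2 or at an unadjusted p under 0.05. USP22, a deubiquitinase of the SAGA complex, had -0.28 (SE 0.05, adjusted p = 6.2e-05), the deubiquitinase gene USP44 -0.41 (SE 0.13, adjusted p = 0.0232) and WAC, a partner of the ligase RNF20, 0.13 (SE 0.04, adjusted p = 0.0418) on the log2 scale. Of 31 histone chaperone and deposition genes, 3 were called lower and 3 higher with Tyr19Phe CDK9 and 2 lower with the inhibitor. DNAJC9, an H3-H4 chaperone, rose with Tyr19Phe CDK9 by log2 0.41 (SE 0.07, adjusted p = 5.49e-05), and SUPT6H, which encodes an elongation factor that handles nucleosomes, by 0.24 (SE 0.05, adjusted p = 0.00109). ATRX, which deposits H3.3 with DAXX, fell, with -0.22 (SE 0.06, adjusted p = 0.0116). NAP1L1, a carrier of H2A-H2B, fell with the inhibitor, with -0.18 (SE 0.04, adjusted p = 0.0024), and so did TONSL, which binds newly made H4, with -0.23 (SE 0.06, adjusted p = 0.0148).

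Genes of the cell cycle were set beside the histone sums because replication-dependent histone RNA is made in S phase. Of 43 S phase genes, 6 were called lower and 3 higher with Tyr19Phe CDK9, and 4 lower and none higher with the inhibitor (edgeR, with none higher by DESeq2 or at an unadjusted p under 0.05). Of 54 G2/M genes, 11 were called lower and 3 higher with Tyr19Phe CDK9, and 3 lower and none higher with the inhibitor (likewise none higher by DESeq2 or unadjusted). With Tyr19Phe CDK9, the helicase gene MCM5 rose by log2 0.32 (SE 0.05, adjusted p = 2.38e-05), whereas the polymerase gene POLA1 had -0.36 (SE 0.07, adjusted p = 0.000497) and ATAD2 -0.26 (SE 0.04, adjusted p = 4.31e-05). With the inhibitor, the thymidylate synthase gene TYMS had -0.30 (SE 0.07, adjusted p = 0.0112), the clamp gene PCNA -0.17 (SE 0.05, adjusted p = 0.021) and the deubiquitinase gene USP1 -0.16 (SE 0.05, adjusted p = 0.0434). Of the G2/M genes, RANGAP1 had 0.30 (SE 0.05, adjusted p = 1.29e-05), the proliferation marker MKI67 -0.24 (SE 0.04, adjusted p = 2.71e-05) and CBX5 -0.19 (SE 0.04, adjusted p = 0.000217) with Tyr19Phe CDK9, and the cytokinesis gene ANLN had -0.18 (SE 0.04, adjusted p = 0.00318), RANGAP1 -0.22 (SE 0.05, adjusted p = 0.00427) and TACC3 -0.18 (SE 0.05, adjusted p = 0.0253) with the inhibitor. The summed S phase level was 4326 to 4396 CPM in WT CDK9, 4084 to 4134 CPM in inhibitor-treated and 4159 to 4274 CPM in Tyr19Phe CDK9 libraries. The S phase sum with Tyr19Phe CDK9 was 0.965 times that of WT CDK9. The replication-dependent histone sum was 2.17 times, with most of it in the 9 genes called by that contrast. The part of the cell cycle in the histone sums was not tested. In bulk RNA, fewer cells in a phase and less RNA per cell cannot be told apart.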

How the data were processed

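RNA of 9 SKOV3 libraries, 3 per group, was grouped by the deposited labels. According to the study, total RNA was extracted with the RNeasy Mini kit, and a company prepared and sequenced the libraries. The submitters' processing notes name CASAVA, HISAT2 2.0.5, featureCounts 1.5.0-p3 and the builds GRCh38 and hg38. The authors deposited read counts per gene as whole numbers without normalization; the table also lists gene identifiers, symbols, biotypes, coordinates and lengths. The RNA selection, the strand setting of the counting and the handling of reads that fit several genes are not given in the sources used here. Without strand, reads of overlapping genes on opposite strands cannot be told apart.

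Counts were analysed with edgeR 4.0.16 (filterByExpr with a minimum count of 10 and a minimum total of 15, TMM, quasi-likelihood fit of 1 mean per group to all 9 libraries, 6 residual degrees of freedom) in R 4.3.3, with DESeq2 1.42.0 as an alternative. The study names DESeq2 for its ranked lists. The joint edgeR fit was used here because it shares 1 estimate of the spread over 6 residual degrees of freedom. The Benjamini-Hochberg adjustment ran over the 16350 tested genes. Totals of 18169050 to 29320184 counts set the precision. No pair of libraries held identical counts, and within groups they correlated across genes in log2 CPM (prior count 2) at 0.975 to 0.986. Same-numbered libraries of different groups did not deviate together (r between -0.012 and 0.026) and were therefore left unpaired.

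Members were selected by symbol and biotype. The members, gene lists, tests and alternatives were chosen with earlier results of these data known. Named genes are, per class, the 8 with the highest mean CPM per kb, up to 5 per comparison called with the smallest adjusted p, all tested variant genes, and, per list and comparison with WT CDK9, up to 3 called genes with the smallest adjusted p besides SLBP, NPAT and CASP8AP2. The lists, written by hand or after the Seurat package, cover histone mRNA 3′ end processing and the histone locus body, H2B monoubiquitination, histone chaperones, S phase, G2/M, epithelial and ovarian cancer markers, and immune, endothelial and fibroblast markers. Stop codons, start sites and GC content came from GENCODE release 44, in which 58207 of 58735 identifiers were found, and sequence from hg38, the build of the table; gene positions are those of the table.

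Each result was recomputed with other scalings in edgeR (size factors of DESeq2, upper quartile, library size), with DESeq2 in place of edgeR, with a looser filter (1 count) and a stricter one (10 counts in each library), among protein-coding genes, with a replicate block, with an offset for GC content and length, with block and offset, with a fit of the 2 groups compared, at other thresholds (unadjusted p of 0.05 or adjusted p of 0.01), without each library, and without ALK inhibitor replicate 2 and Tyr19Phe CDK9 replicate 3 together. The code was tested on simulated data with 200 changed genes. Python 3.11.15, pandas 2.3.3 and matplotlib 3.10.9 served for sequence search and plots.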

Additional observations from a re-analysis of the deposited data

How the results depend on the processing

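Calls of histone genes stayed within 1.5 times their number under the alternatives not named here, and no call was reversed; causes of the shifts were not tested unless stated. At an unadjusted p under 0.05, the ALK inhibitor gave 2 replication-dependent genes higher and 1 variant gene lower in place of 0 and 0, and Tyr19Phe against inhibitor-treated cells gave 11 replication-dependent and 3 variant genes higher in place of 5 and 1. Over all 16350 tested genes that threshold gave 1129 higher and 1344 lower with the inhibitor, and 2457 higher with Tyr19Phe against inhibitor-treated cells. At an adjusted p under 0.01 the latter gave 3 replication-dependent genes higher, and so did leaving out ALK inhibitor replicate 2 and Tyr19Phe CDK9 replicate 3 together (called the sparser pair below). The GC and length offset, alone and with the replicate block, gave 2 variant genes higher in that comparison, where H2AFY was added (adjusted p = 0.0149 and 0.0173). The replicate block alone gave 9 replication-dependent genes higher against WT CDK9, as before, and 6 in place of 5 against inhibitor-treated cells, where it added HIST1H1C (adjusted p = 0.0498); replicate numbers do not pair these libraries.

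Medians moved with the genes admitted. The median log2 fold change of replication-dependent genes in Tyr19Phe against WT CDK9 cells was 0.886, but 0.373 with DESeq2 and its own filter and 0.357 without a filter, which admit genes of very few counts, 1.453 with at least 10 counts in every library and 1.148 without the sparser pair. Against inhibitor-treated cells it was 0.870, but 0.133 with DESeq2 and 0.130 without a filter. With the inhibitor it was 0.343, and 0.082 without the sparser pair. For variant genes, the Tyr19Phe median of 0.022 became 0.087 with DESeq2 and 0.088 without a filter, and that against inhibitor-treated cells, 0.090, became 0.116 with the offset, 0.115 with offset and block and 0.052 without the sparser pair.

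With each library left out in turn, the inhibitor median lay between 0.086 and 0.376 for replication-dependent and between -0.084 and -0.030 for variant genes, and 0 to 1 variant genes were called lower (H2AFX, without WT CDK9 replicate 3). In Tyr19Phe against inhibitor-treated cells, 3 to 5 replication-dependent and 1 to 2 variant genes were called higher, and the variant median lay between 0.053 and 0.114. Replication-dependent genes had low counts, and standard errors of uncalled genes reached 0.99 on the log2 scale.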

Other observations

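In Tyr19Phe against inhibitor-treated WT CDK9 cells, 3 of the 27 genes of histone mRNA 3′ end processing and the histone locus body were called lower and 4 higher by edgeR, 2 of 11 H2B ubiquitination genes lower and 0 higher (0 higher by DESeq2 and at an unadjusted p under 0.05), and 2 of 31 chaperone and deposition genes lower and 5 higher. Of the 43 S phase genes 1 was lower and 5 higher, and of the 54 G2/M genes 8 were lower and 6 higher. These counts stand beside 11.1% of all tested genes called lower and 9.57% called higher in this comparison.

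Several untested replication-dependent genes had a large share of their counts in 1 library. HIST1H2AB, an H2A gene, had 12 of its 17 counts in ALK inhibitor replicate 2, where HIST1H2AE had 23 of 65 and the H2B gene HIST1H2BG 18 of 52. HIST1H3J, an H3 gene, had 20 of its 43 counts in Tyr19Phe CDK9 replicate 3, where HIST1H2BF had 18 of 54 and HIST1H4K 17 of 45. The H2B gene HIST1H2BO had 11 of its 25 counts in WT CDK9 replicate 3. These genes were chosen after their values were seen.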
